A study of Mus musculus with 23 samples.

Results

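The levels of 9 mouse genes were examined, 6 known from T cell development in the thymus (Rag1, Rag2, Dntt, Ptcra, Cd1d1 and Cd7) and 3 of the Notch pathway (Notch1, Hes1 and Dtx1), out of 12393 genes that the array named singly. A member's probe sets were those whose platform annotation gave its symbol and no other, which left 13 of 22626 probe sets. The 23 Affymetrix Mouse 430A 2.0 arrays held 6 groups. CD8+ T cells came from 10 to 15 week old mice, either purified from wild-type animals (6 arrays) or purified from Snf5-deficient lymphomas (5 arrays). Mouse embryonic fibroblasts (MEFs), at E13.5, were wild type (2 sets of 3 arrays, one listed as the control of each mutant line), Ezh2-deficient (3 arrays) or Snf5 Ezh2-deficient (3 arrays). In the mutant MEFs the genes were inactivated conditionally, per the series' design text, but the sources used here do not give the driver of the deletion, the tissue of the CD8+ cells or the strains. Smarcb1 encodes Snf5, an invariant component of the SWI/SNF nucleosome remodellers, and Ezh2 is the histone methyltransferase of Polycomb repressive complex 2. Samples were titled biological replicates without stating separate animals or cultures, so p-values measured the spread between these samples, which may be partly technical.

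Notch receptors are cut within the membrane when a neighbouring cell presents a ligand, and the freed intracellular part enters the nucleus, binds the DNA-binding protein RBPJ and switches target genes on. In the thymus this signal commits progenitors to the T lineage and carries them through the stages at which T cell receptor genes are assembled. Rag1 and Rag2 cut those genes, Dntt adds bases at the joins, and Ptcra encodes the partner of the first finished receptor chain.

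The wild-type arrays were not alike, and each member was therefore compared with all 6 of them and with arrays 2 to 5 only. For other genes, T cell comparisons are with all 6 unless stated. Cd8a, a defining gene of CD8+ cells, read log2 10.73 and 10.59 on wild-type arrays 1 and 6 and 13.32 to 13.64 on the other 4, and it read 13.12 to 13.55 on the lymphoma arrays. The mean of 10 measured T cell identity markers was 11.03 and 10.62 on wild-type arrays 1 and 6 and 12.44 to 13.04 on arrays 2 to 5. On the lymphoma arrays this mean was 11.70 to 12.84. The mean log2 level of 10 measured B cell markers was 10.17 and 10.25 on wild-type arrays 1 and 6, 6.87 to 7.88 on arrays 2 to 5 and 6.44 to 6.54 on the lymphoma arrays. The mean of 11 myeloid markers was 12.44 and 12.38 on wild-type arrays 1 and 6, 6.24 to 8.31 on arrays 2 to 5 and 8.47 to 10.50 on the lymphoma arrays. Cd4, the coreceptor of helper T cells, read 9.12, 9.63, 6.58, 6.25, 11.11 and 8.99 on wild-type arrays 1 to 6 and 5.92 to 6.73 on the lymphoma arrays, so it was high on arrays 2 and 5 as well. The part of other cells in the results was not tested. Among the wild-type arrays, 3 and 4 carried the lowest levels of the B cell and myeloid markers and of Cd4. Values against them alone are given where they bear on a member. In bulk RNA, fewer cells of a type and less RNA per cell cannot be told apart. The targeted gene Smarcb1 was read by probe sets 1416045_a_at and 1435856_x_at. The first read 10.38 to 11.48 on the wild-type arrays and 8.30, 8.49, 5.81, 5.64 and 8.67 on lymphoma arrays 1 to 5. Its log2 change was -3.65 (SE 0.591, limma, adjusted p = 0.00244). The second read 10.12 to 12.59 on the wild-type arrays and 9.32, 9.98, 8.65, 8.77 and 9.71 on lymphoma arrays 1 to 5. Its log2 change was smaller, at -1.95 (SE 0.426, limma, adjusted p = 0.0114). In both probe sets all lymphoma arrays lay below all wild-type arrays, and lymphoma arrays 3 and 4 were the lowest.

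Notch1, its target Dtx1, the T cell surface gene Cd7 and the polymerase gene Dntt were all far lower in the Snf5-deficient lymphomas than in wild-type CD8+ T cells. Cd1d1 and Rag2 were lower by a smaller amount, while Rag1, Ptcra and Hes1 did not pass the test. Of the 13 probe sets, 10 were called lower, 0 higher and 3 neither against all 6 wild-type arrays (limma, adjusted p under 0.05), where 6.83% of all probe sets were called lower. At an unadjusted p under 0.05, Hes1 joined the lower ones and no member was higher. Against wild-type arrays 2 to 5 the same 10 probe sets were called lower, with a background of 12.8%. All lymphoma arrays lay below all wild-type arrays for 9 probe sets, as they did for 4.91% of all probe sets, and for 9 below wild-type arrays 2 to 5, as for 13.6% of all. The median log2 change of the 13 probe sets was -2.37 against all 6 controls, beside -0.069 over all probe sets, and -2.69 against arrays 2 to 5, beside -0.116. Both comparisons used the same lymphoma arrays and shared 4 controls, so the second is not independent of the first.

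**Figure D1:**
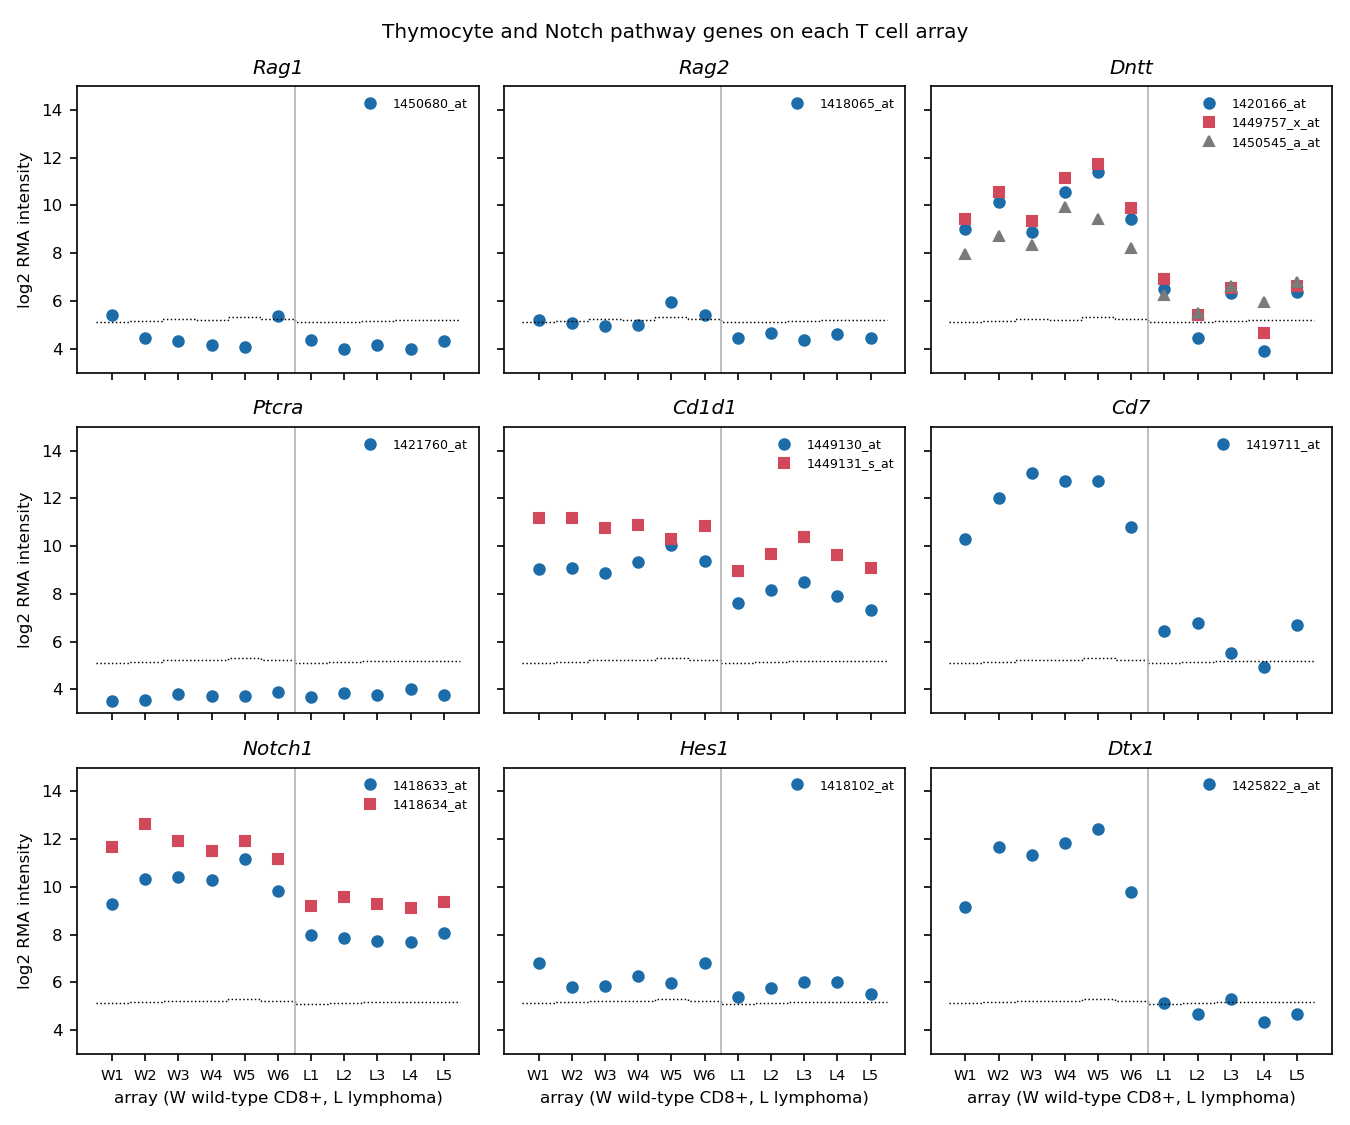
Log2 RMA intensity (vertical axis) of every member probe set on the 6 wild-type CD8+ arrays (W1 to W6) and the 5 lymphoma arrays (L1 to L5), 1 point per array and 1 panel per gene. The dotted line marks the level below which the lowest 25% of an array's probe sets lay. Dtx1 read 9.15 to 12.44 on the wild-type arrays and 4.34 to 5.31 on the lymphoma arrays, whereas all Ptcra points lay under the dotted line.

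Notch1, the receptor with the main role in T cell commitment, was measured by a pair of probe sets, and both fell. The probe set 1418634_at had a lowest, median and highest log2 level of 11.17, 11.80 and 12.65 on the wild-type arrays. On lymphoma arrays 1 to 5 it read 9.19, 9.60, 9.27, 9.10 and 9.37. The groups did not overlap, and the highest lymphoma array lay 1.56 below the lowest wild-type array. Its mean was 11.81 ± 0.498 (SD, n = 6) in wild-type cells and 9.31 ± 0.194 (SD, n = 5) in the lymphomas, a 5.67-fold fall (log2 change -2.50, SE 0.233, limma, adjusted p = 0.000115).

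The other Notch1 probe set, 1418633_at, ran from 9.28 through a median of 10.32 to 11.16 on the wild-type arrays. The lymphoma arrays read 7.97, 7.85, 7.72, 7.68 and 8.07, again below every wild-type array. The fall was 5.15-fold (log2 change -2.37, SE 0.278, limma, adjusted p = 0.000463). Against wild-type arrays 2 to 5 both probe sets gave nearly the same size, with log2 changes of -2.69 for 1418634_at and -2.70 for 1418633_at (adjusted p = 6.11e-05 and 3.33e-05). Against wild-type arrays 3 and 4 alone the changes were -2.41 and -2.50. None of the Notch1 values lay in the lowest 25% of an array, so the lymphoma levels were clear of the floor.

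Dtx1 encodes Deltex, an E3 ubiquitin ligase that binds the Notch intracellular part and is itself a Notch target in T cells. Its log2 difference was the largest of the 9 genes against all 6 controls and against arrays 2 to 5, but not against arrays 3 and 4 alone, where that of Cd7 was -6.81 and that of Dtx1 -6.77. Its probe set 1425822_a_at ran from 9.15 through a median of 11.51 to 12.44 on the wild-type arrays, and wild-type arrays 1 (9.15) and 6 (9.77) were the lowest of them. On lymphoma arrays 1 to 5 it read 5.16, 4.66, 5.31, 4.34 and 4.69. Arrays 2, 4 and 5 lay in the lowest 25% of their values, and the other two stood close above it. The means were 11.04 ± 1.29 (SD, n = 6) and 4.83 ± 0.396 (SD, n = 5), a 74.0-fold fall (log2 change -6.21, SE 0.55, limma, adjusted p = 7.98e-05). Without wild-type arrays 1 and 6 it was 128-fold (log2 change -7.00, adjusted p = 1.29e-06), so the size moved by over 1.5 times with the choice of controls. Because the lymphoma values lie at or near the floor of the arrays, the fold is one of RMA values and need not be the ratio of RNA.

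Hes1, a transcriptional repressor and the most widely used readout of Notch signalling, did not pass the test. Its probe set 1418102_at ran from 5.82 through a median of 6.13 to 6.82 on the wild-type arrays. The lymphoma arrays read 5.39, 5.75, 6.01, 6.04 and 5.51, and the groups overlapped. The log2 change was -0.52 (SE 0.232, limma, adjusted p = 0.156) against all 6 controls and -0.25 (adjusted p = 0.326) against arrays 2 to 5. Wild-type arrays 1 (6.81) and 6 (6.82), which carried the most B cell and myeloid marker RNA, were the highest. No Hes1 value was in the lowest 25%, but all lay in the lower part of their array's range.

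Ptcra, the pre-T-cell receptor alpha chain and a Notch target of immature thymocytes, was at the floor everywhere. Its only probe set, 1421760_at, lay in the lowest 25% on all 23 arrays. It ran from 3.51 to 3.88 on the wild-type arrays and read 3.68, 3.83, 3.78, 4.00 and 3.78 on the lymphoma arrays. The log2 change of 0.11 (SE 0.117, limma, adjusted p = 0.554) is therefore a difference between values with no measurable order. A level of Ptcra RNA below what this probe set can show was not measurable in either group.

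**Figure D2:**
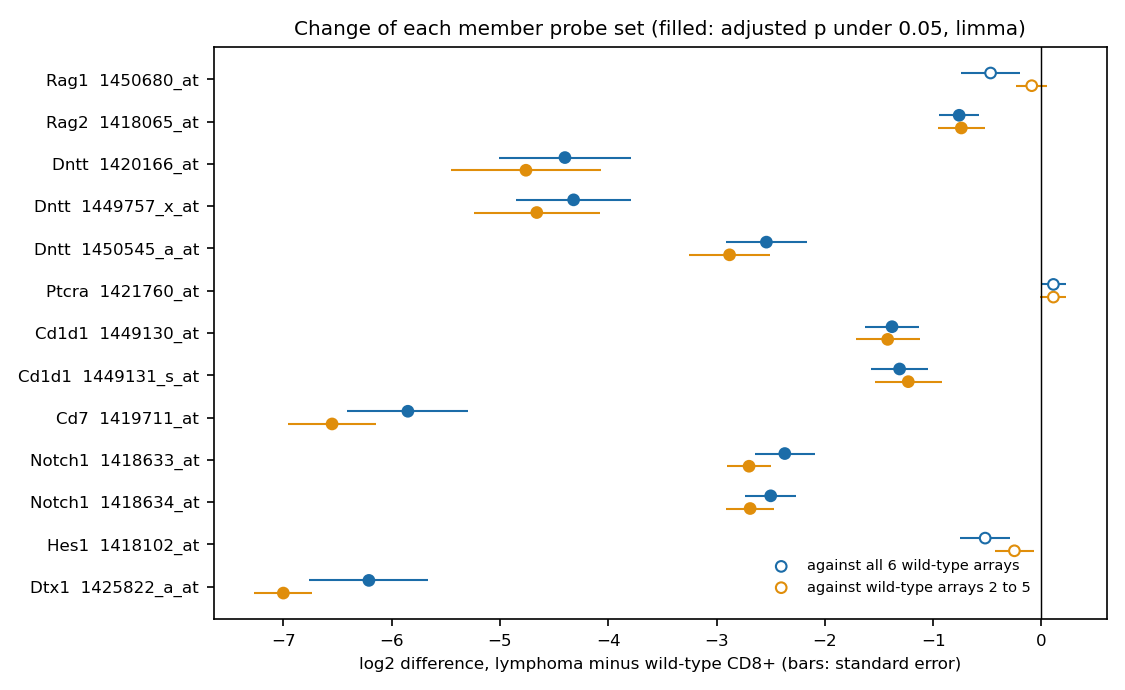
Log2 difference of lymphoma minus wild-type CD8+ T cells (horizontal axis) for each member probe set, against all 6 wild-type arrays (blue) and against arrays 2 to 5 (orange). Bars are standard errors and filled points had an adjusted p under 0.05 (limma). The 10 called probe sets ran from -0.76 for Rag2 to -6.21 for Dtx1 against all 6 arrays.

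The promoters of the Notch members are shown because Notch1 and Dtx1 fell together while Ptcra stayed at the floor. Each run is the 250 bases before the RefSeq gene start on build GRCm38.p6, read 5′ to 3′ on the strand of the gene; Dtx1 lies at chr5:120711670-120711919 (minus strand), Notch1 at chr2:26503823-26504072 (minus strand) and Ptcra at chr17:46763713-46763962 (minus strand). Capitals mark TGGGAA, the core of the RBPJ site, and the E-box CANNTG, the letters bound by E proteins of the thymus; both strands were searched, and the motifs do not overlap here.
Dtx1: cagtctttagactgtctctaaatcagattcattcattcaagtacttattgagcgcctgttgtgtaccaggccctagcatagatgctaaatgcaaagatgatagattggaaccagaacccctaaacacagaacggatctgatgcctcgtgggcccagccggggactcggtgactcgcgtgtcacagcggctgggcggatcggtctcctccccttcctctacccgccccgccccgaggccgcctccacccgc
Notch1: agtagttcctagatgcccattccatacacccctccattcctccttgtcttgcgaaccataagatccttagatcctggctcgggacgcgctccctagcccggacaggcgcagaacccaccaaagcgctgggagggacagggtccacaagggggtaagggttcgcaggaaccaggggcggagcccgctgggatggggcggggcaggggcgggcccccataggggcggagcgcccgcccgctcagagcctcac
Ptcra: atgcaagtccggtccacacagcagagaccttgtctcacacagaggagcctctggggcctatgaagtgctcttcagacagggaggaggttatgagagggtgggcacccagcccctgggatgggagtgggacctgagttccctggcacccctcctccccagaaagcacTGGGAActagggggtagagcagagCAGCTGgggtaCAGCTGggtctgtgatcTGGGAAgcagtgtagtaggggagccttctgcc

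Neither motif's letters stood in the Dtx1 or the Notch1 window. The Ptcra window held TGGGAA at positions -84 and -32 and the E-box CAGCTG at -60 and -49, counted from the gene start to the first base of the match. TGGGAA stood in 21.6% and CANNTG in 66.2% of all 32851 promoter windows of the same length, so a match is common and describes letters only. Of the 9 members, 6 were in the RefSeq promoter table; Cd1d1, Cd7 and Hes1 were not used here.

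Dntt encodes terminal deoxynucleotidyl transferase, which adds untemplated bases to receptor gene joins. Its 3 probe sets all fell. The probe set 1420166_at ran from 8.89 through a median of 9.79 to 11.41 on the wild-type arrays. Lymphoma arrays 1 to 5 read 6.51, 4.43, 6.31, 3.88 and 6.39, which split the lymphomas: arrays 2 and 4 lay in the lowest 25%, while arrays 1, 3 and 5 stood above it. No lymphoma array reached any wild-type array, and the fall was 21.2-fold (log2 change -4.40, SE 0.612, limma, adjusted p = 0.00104). With 2 of the 5 lymphoma values at the floor, this fold is one of RMA values and need not be the ratio of RNA, and the same holds for the probe sets of Dntt and Cd7 with 1 lymphoma array there.

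The Dntt probe set 1449757_x_at, of a type that can cross-hybridise, gave the same order of lymphoma arrays, with 6.90, 5.40, 6.54, 4.64 and 6.63 against 9.35 to 11.73 in wild-type cells. Only array 4 was in the lowest 25%, and the fall was 20.0-fold (log2 change -4.32, SE 0.53, limma, adjusted p = 0.000576). The probe set 1450545_a_at, which can read alternative transcripts of the gene, read 6.24, 5.49, 6.64, 5.96 and 6.77 on the lymphoma arrays and 7.96 to 9.92 on the wild-type arrays. It fell 5.82-fold (log2 change -2.54, SE 0.375, adjusted p = 0.00146), less than the other two, with no array in the lowest 25%. Against wild-type arrays 2 to 5 the 3 log2 changes were -4.76, -4.66 and -2.88 (adjusted p = 0.00128, 0.000606 and 0.000691). Wild-type arrays 4 and 5 were the highest for all 3 probe sets.

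Rag1 and Rag2, the pair of proteins that form the recombinase, were near the floor in both groups. Rag2, in probe set 1418065_at, ran from 4.93 through a median of 5.13 to 5.97 on the wild-type arrays, with arrays 2, 3 and 4 in the lowest 25%. On the lymphoma arrays it read 4.43, 4.64, 4.37, 4.62 and 4.45, all in the lowest 25% and all below the wild-type arrays. The log2 change was -0.76 (SE 0.187, limma, adjusted p = 0.0192), a 1.70-fold difference, and -0.74 (adjusted p = 0.036) against arrays 2 to 5.

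The Rag2 call did not hold throughout. Against all 6 controls it was lost without lymphoma array 3 (limma, adjusted p = 0.0507). Against wild-type arrays 2 to 5 it was lost when any of lymphoma arrays 1 to 5 was left out (adjusted p = 0.0739, 0.051, 0.0776, 0.0584 and 0.0721 in that order). As 8 of its 11 values sat in the lowest 25%, the Rag2 difference is one close to the floor.

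Rag1, in probe set 1450680_at, lay in the lowest 25% on 9 of the 11 T cell arrays. The exceptions were wild-type arrays 1 and 6, which read 5.40 and 5.38 against 4.44, 4.31, 4.17 and 4.07 on wild-type arrays 2 to 5. The lymphoma arrays read 4.35, 3.99, 4.14, 3.97 and 4.32 and overlapped with arrays 2 to 5. The log2 change was -0.47 (SE 0.269, limma, adjusted p = 0.263) against all 6 controls and -0.09 (adjusted p = 0.637) against arrays 2 to 5. Both high arrays were also those with the highest mean of the B cell markers (10.17 and 10.25) and of the myeloid markers (12.44 and 12.38). The part of such cells in the Rag1 values was not tested.

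The promoters of Rag1 and Dntt are shown for the same motifs, since the first stayed at the floor on most arrays and the second was high in wild-type cells. They are the 250 bases before the RefSeq gene start on GRCm38.p6, with Rag1 at chr2:101649533-101649782 (minus strand) and Dntt at chr19:41029025-41029274 (plus strand), and capitals mark TGGGAA and CANNTG as above.
Rag1: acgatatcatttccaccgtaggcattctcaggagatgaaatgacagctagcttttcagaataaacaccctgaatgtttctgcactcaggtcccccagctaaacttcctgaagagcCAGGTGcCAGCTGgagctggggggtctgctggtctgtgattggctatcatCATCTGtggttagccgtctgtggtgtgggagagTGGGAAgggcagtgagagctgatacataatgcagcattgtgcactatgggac
Dntt: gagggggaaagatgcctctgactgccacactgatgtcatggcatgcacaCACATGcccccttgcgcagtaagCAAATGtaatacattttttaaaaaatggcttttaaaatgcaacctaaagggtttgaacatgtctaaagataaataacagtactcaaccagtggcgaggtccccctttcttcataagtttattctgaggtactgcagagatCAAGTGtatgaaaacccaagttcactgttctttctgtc

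Rag1 held E-boxes at -135, -128 and -85 and TGGGAA at -52. Dntt held E-boxes at -201, -178 and -38 and no TGGGAA. Rag2, at chr2:101624462-101624711 (plus strand), held a single E-box at -161 and no TGGGAA.

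Cd7 encodes an immunoglobulin-family receptor on thymocytes, T cells and NK cells. Its probe set 1419711_at ran from 10.28 through a median of 12.36 to 13.06 on the wild-type arrays, with arrays 1 (10.28) and 6 (10.79) lowest. The lymphoma arrays read 6.44, 6.80, 5.53, 4.94 and 6.70, and array 4 was in the lowest 25%. The groups were 3.48 apart at their nearest arrays. The means were 11.93 ± 1.14 (SD, n = 6) and 6.08 ± 0.815 (SD, n = 5), a 57.6-fold fall (log2 change -5.85, SE 0.558, limma, adjusted p = 0.000138). Without wild-type arrays 1 and 6 the fall was 93.4-fold (log2 change -6.55, adjusted p = 1.45e-05).

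NK cell markers were also lower in the lymphomas, with a mean over 5 measured genes of 8.68 to 9.89 on the wild-type arrays and 6.17 to 7.01 on the lymphoma arrays. Of these 5 genes, 3 were called lower against all 6 controls and 2 against arrays 2 to 5, beside 7.71% and 13.2% of all genes. The largest set held Klrd1, an NK receptor chain that CD8+ T cells also carry (log2 change -6.45 against all 6, limma, adjusted p = 0.000516). The part of NK cells in the Cd7 difference was not tested.

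Cd1d1 encodes the CD1d molecule, which presents lipids to NKT cells and is carried by double-positive thymocytes, B cells and other blood cells. Its probe set 1449130_at read 9.06, 9.10, 8.88, 9.32, 10.03 and 9.39 on wild-type arrays 1 to 6. The lymphoma arrays read 7.64, 8.18, 8.51, 7.91 and 7.33, with array 3 only 0.38 below the lowest wild-type array. The fall was 2.61-fold (log2 change -1.38, SE 0.252, limma, adjusted p = 0.00466) and was -1.42 on the log2 scale against arrays 2 to 5 (adjusted p = 0.00831).

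The other Cd1d1 probe set, 1449131_s_at, is of a type shared by several transcripts and may read the near-identical Cd1d2 as well. It ran from 10.30 through a median of 10.86 to 11.19 on the wild-type arrays and read 8.96, 9.67, 10.40, 9.61 and 9.09 on the lymphoma arrays. Lymphoma array 3 (10.40) thus stood above wild-type array 5 (10.30), and the groups overlapped by these arrays. The fall was 2.48-fold (log2 change -1.31, SE 0.263, limma, adjusted p = 0.00768) and -1.23 on the log2 scale against arrays 2 to 5 (adjusted p = 0.0183). Both probe sets had lymphoma array 3 highest, and no value was in the lowest 25%.

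Against wild-type arrays 3 and 4 alone, a comparison added after seeing the data, all called members kept their direction. The log2 changes were -6.77 for Dtx1, -6.81 for Cd7, -4.23, -4.22 and -2.90 for the 3 Dntt probe sets, -1.19 and -1.27 for those of Cd1d1 and -0.47 for Rag2. The adjusted p (limma) ran from 4.27e-05 for Dtx1 to 0.0494 for the Cd1d1 probe set 1449131_s_at, and 0.042 for Rag2. The Rag2 difference was smaller than against all 6 controls (-0.76), and the Dtx1 fall was smaller than against arrays 2 to 5 (-7.00). While wild-type arrays 3 and 4 carried the lowest B cell, myeloid and Cd4 levels, they had the highest mean of the NK cell markers (9.89 and 9.58), and the part of these cells was not tested.

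Most other measured genes of the Notch pathway were not called, and those that were went both ways. Genes were read through 1 representative probe set each, and 7.71% of all genes were called lower and 9.07% higher against all 6 controls, with 13.2% lower and 13.2% higher against wild-type arrays 2 to 5. Among the 5 ligands measured, 2 rose, 0 fell and 3 were not called in either comparison. Dll1 read 4.82 to 5.90 on the wild-type arrays and 6.36 to 7.42 on the lymphoma arrays, a rise of 1.21 on the log2 scale (limma, adjusted p = 0.00586). Its wild-type values were near the floor, the lowest of them in the lowest 25%. The mean of 5 measured thymic epithelium markers was also higher, at 7.60 to 8.11 on the lymphoma arrays and 6.63 to 7.25 on the wild-type arrays. Of these, 1 was called higher against all 6 controls, Epcam (log2 change 3.82, adjusted p = 0.00157), and 2 against arrays 2 to 5, while the epithelial regulator Foxn1 differed by -0.17 (adjusted p = 0.485). The part of such cells in the ligand levels was not tested. Jag2 rose by 1.38 (adjusted p = 0.017) against all 6 controls and by 1.18 (adjusted p = 0.0431) against arrays 2 to 5. Against arrays 2 to 5 the Jag2 call was lost without wild-type array 3, 4 or 5 or lymphoma array 1, 4 or 5 (adjusted p from 0.0683 to 0.0938).

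Of the 3 other Notch receptors, 1 fell and 2 were not called. Notch2 differed by 0.16 (limma, adjusted p = 0.701) and Notch3 by 0.45 (adjusted p = 0.342) on the log2 scale. Notch4, known mainly from blood vessels, fell by 1.15 (adjusted p = 0.0281). Its call was lost without wild-type array 2 or lymphoma array 1, 2 or 3 (adjusted p = 0.0583, 0.0507, 0.0599 and 0.0643). Against arrays 2 to 5 Notch4 fell by 1.34 (limma, adjusted p = 0.0166), and that call held with each array left out.

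Of 11 measured genes that process or glycosylate Notch receptors, 2 fell against all 6 controls and 4 against arrays 2 to 5, and 0 rose. The largest change was that of Lfng (Lunatic fringe), a glycosyltransferase that makes thymocyte Notch receptors more responsive to Delta ligands. Lfng read 10.22, 12.24, 12.30, 12.15, 11.57 and 9.71 on wild-type arrays 1 to 6 and 7.99, 8.63, 9.24, 7.81 and 7.52 on the lymphoma arrays, with no overlap (log2 change -3.13, limma, adjusted p = 0.00311). Against arrays 2 to 5 the change was -3.83 (adjusted p = 9.6e-05). Adam10, the protease that makes the outer cut, fell by 0.75 (adjusted p = 0.0214), a call lost without lymphoma array 3, 4 or 5 (adjusted p = 0.056, 0.0595 and 0.053). Mfng (Manic fringe) differed by -0.61 (adjusted p = 0.277) against all 6 controls and fell by 1.13 (adjusted p = 0.000547) against arrays 2 to 5. Psen2, a gamma-secretase subunit, fell by 0.82 against arrays 2 to 5 (adjusted p = 0.044) and had an adjusted p of 0.274 against all 6. Leaving out any array other than wild-type array 4 ended its call (adjusted p from 0.051 to 0.11).

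In the nuclear complex, 1 of 6 measured genes fell. Maml1, a Mastermind coactivator, fell by 1.00 (limma, adjusted p = 0.0125). Rbpj, the DNA-binding partner of Notch, had a higher mean in the lymphomas, but the groups overlapped and it was not called against all 6 controls. It read 9.49 to 10.86 on the wild-type arrays and 10.92, 12.00, 12.26, 10.94 and 10.45 on the lymphoma arrays, with a log2 change of 1.10 (adjusted p = 0.0582) against all 6 controls and 1.27 (adjusted p = 0.043) against arrays 2 to 5. The first passed without wild-type array 1 or lymphoma array 5 (adjusted p = 0.0416 and 0.0373), and the second was lost without any array but lymphoma array 5 (adjusted p from 0.053 to 0.095).

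Among 8 measured Notch targets of T cells other than the members, 1 rose, 1 fell and 6 were not called, in both comparisons. Il2ra, the alpha chain of the interleukin-2 receptor, which both early thymocytes and activated T cells carry, rose by 3.83 (SE 0.622, limma, adjusted p = 0.0025). It read 4.92 to 8.16 on the wild-type arrays and 9.63 to 11.26 on the lymphoma arrays. Gata3, a transcription factor of the T lineage, fell by 2.86 (adjusted p = 0.0412), but its wild-type levels spread from 5.81 and 6.49 on arrays 6 and 1 to 8.64 to 10.24 on arrays 2 to 5. Against arrays 2 to 5 it fell by 3.99 (adjusted p = 0.000672). Against all 6 controls the Gata3 call was lost without wild-type array 2, 3, 4 or 5 or lymphoma array 1, 2, 3 or 5 (adjusted p from 0.0665 to 0.0975). Myc and Nrarp, other Notch targets, differed by 0.30 and -0.26 on the log2 scale (adjusted p = 0.322 and 0.673).

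Of 6 measured genes that govern Notch turnover, 2 fell and 0 rose. Itch, a ubiquitin ligase, fell by 0.87 (limma, adjusted p = 0.00318), and Numb, an adaptor that restrains Notch, fell by 0.65 (adjusted p = 0.019, or 0.0531 without lymphoma array 3). Against arrays 2 to 5 Numb fell by 0.60 (adjusted p = 0.0376). That call was lost in 7 of 9 fits with 1 array left out (adjusted p up to 0.0924) and in moderation with a trend (adjusted p = 0.0526). Over the 6 groups of the pathway the median log2 change lay between -0.57 for the turnover genes and 0.16 for the receptors, beside -0.0695 over all genes. In the plot of the pathway, Lfng, Gata3 and Il2ra stand apart from the other genes by size.

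**Figure D3:**
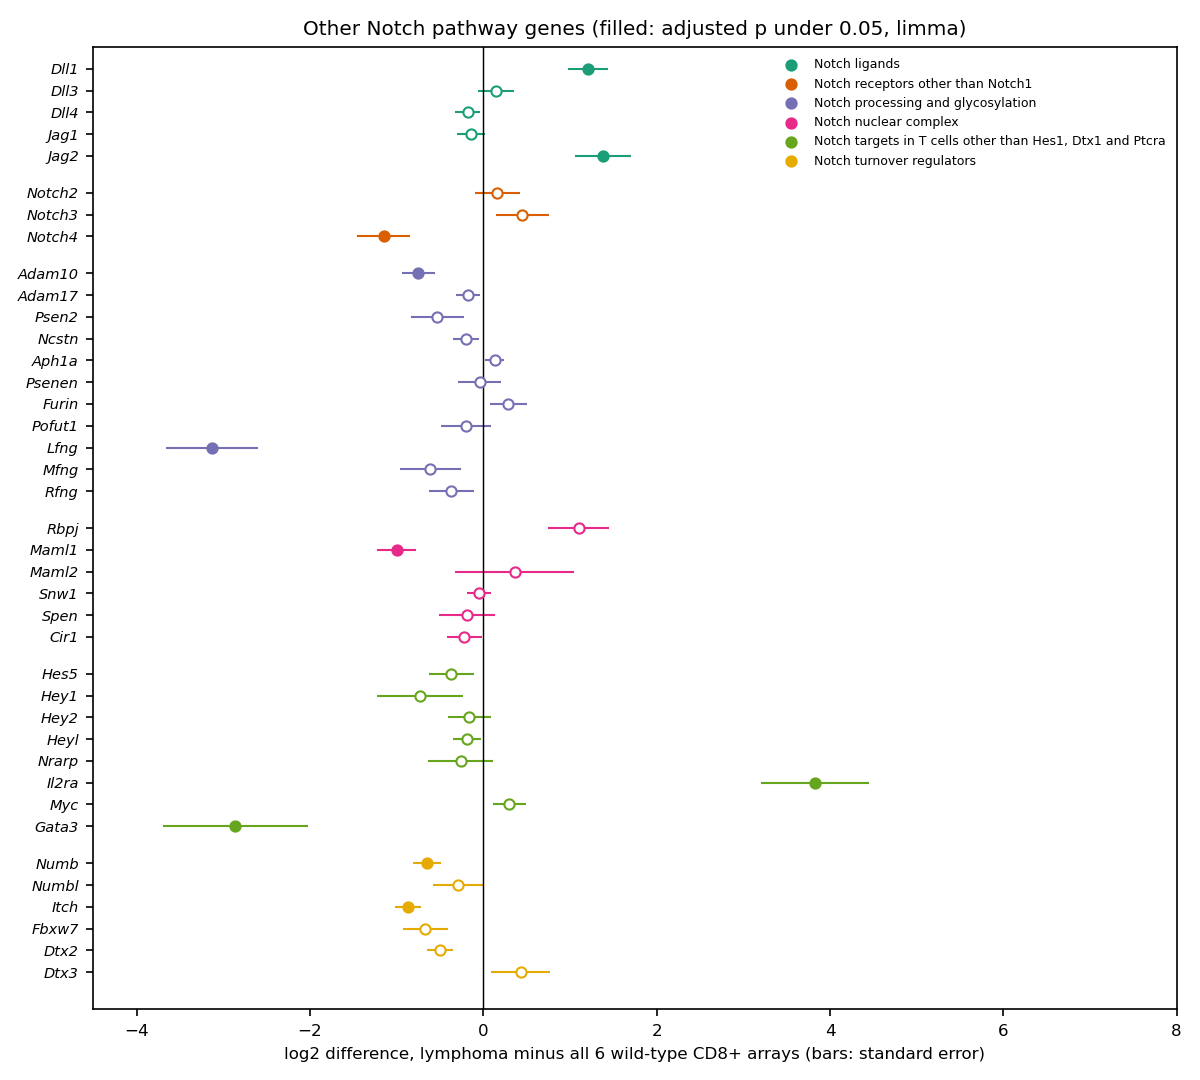
Log2 difference of the lymphomas minus all 6 wild-type CD8+ arrays (horizontal axis) for the measured genes of 6 Notch pathway groups, colour-coded by group, each through 1 probe set. Bars are standard errors and filled points had an adjusted p under 0.05 (limma). Most points lie near 0, with Il2ra at 3.83, Lfng at -3.13 and Gata3 at -2.86 farthest out.

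The genes that work with the recombinase mostly did not pass the test. Of 9 measured partners of V(D)J joining, 1 rose and 8 were not called. Xrcc6, which encodes Ku70 of the end-joining machinery, rose by 0.55 (limma, adjusted p = 0.0385), a call lost without wild-type array 1, 2 or 3 or lymphoma array 2, 3, 4 or 5 (adjusted p from 0.0585 to 0.0978). Against arrays 2 to 5, Hmgb2, which helps the recombinase bend DNA, rose by 1.06 (adjusted p = 0.00318), and Atm, the kinase of double-strand breaks, fell by 0.73 (adjusted p = 0.0104). Against all 6 controls these differed by 0.69 and -0.27 (adjusted p = 0.118 and 0.609).

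Among 10 regulators of Rag transcription, 2 fell and 0 rose. Satb1, a genome organiser of thymocytes and T cells, read 10.89, 12.79, 12.73, 12.86, 13.46 and 11.24 on wild-type arrays 1 to 6 and 7.57, 6.11, 4.70, 5.05 and 7.25 on the lymphoma arrays. The log2 change was -6.19 (SE 0.628, limma, adjusted p = 0.000204), close in size to Dtx1 and Cd7. Lymphoma arrays 3 and 4 lay in the lowest 25% for Satb1, so this change too need not be the ratio of RNA. Id2, an inhibitor of E proteins, fell by 1.09 (adjusted p = 0.012). Against arrays 2 to 5, 3 fell, with the E protein gene Tcf12 added (log2 change -0.60, adjusted p = 0.023, or 0.0568 and 0.0503 without lymphoma array 3 or 4).

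Most genes of both thymocyte stages were not called, though their median changes were negative. The median log2 change of the early genes was -1.37 against all 6 controls and -0.42 against arrays 2 to 5. That of the double-positive genes was -0.46 and -1.34 in the same order, beside -0.0695 and -0.108 over all genes. Of 12 early thymocyte genes, 1 rose (Il2ra), 1 fell (Il7r) and 10 were not called. Il7r, the interleukin-7 receptor of early thymocytes and naive T cells, fell by 1.80 (limma, adjusted p = 0.0222). Against arrays 2 to 5, Hhex, a homeobox gene of progenitors, also rose, by 1.71 (adjusted p = 0.0261), a call lost without wild-type array 3, 4 or 5 or lymphoma array 1, 2 or 5 (adjusted p from 0.0506 to 0.0661). Of 12 measured genes of double-positive thymocytes, 1 rose, 1 fell (Satb1) and 10 were not called against all 6 controls. Against arrays 2 to 5, 1 rose and 4 fell, where 13.2% of all genes were called lower. The one that rose against all 6, the receptor gene Slamf6, changed by 0.94 (adjusted p = 0.0459). Its call was lost without wild-type array 1, 2, 5 or 6 or any of the 5 lymphoma arrays (adjusted p from 0.0681 to 0.11), and it was not called against arrays 2 to 5 (adjusted p = 0.0991).

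Against wild-type arrays 2 to 5 the T lineage transcription factor genes Lef1 and Bcl11b fell by 2.61 and 2.00 (limma, adjusted p = 0.012 and 0.0308). Against all 6 controls they differed by -0.87 and -0.58 (adjusted p = 0.656 and 0.727), so that these calls rest on leaving out wild-type arrays 1 and 6. The Bcl11b call was also lost without wild-type array 3, 4 or 5 or lymphoma array 1 (adjusted p = 0.0797, 0.0697, 0.0522 and 0.0663). Plxnd1, a plexin of thymocyte migration, rose by 1.16 (adjusted p = 0.0373) against arrays 2 to 5, a call lost without wild-type array 2, 3 or 4 or lymphoma array 1, 3 or 5 (adjusted p from 0.0571 to 0.0935). Of 5 measured genes of thymic egress and naive T cells, 2 fell, Klf2 and Il7r. Klf2, a transcription factor of quiescent T cells, fell by 2.39 (adjusted p = 0.0287) and lost its call without wild-type array 2, 3, 4 or 5 or lymphoma array 2, 3 or 4 (adjusted p from 0.0535 to 0.0754). Against arrays 2 to 5 Klf2 fell by 2.91 (adjusted p = 0.0105), and that call held with each array left out. S1pr1, the egress receptor, fell by 1.80 (adjusted p = 0.0131) against arrays 2 to 5 and differed by -0.84 (adjusted p = 0.448) against all 6.

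Genes with the pattern most like a member were found among 10646 genes by the root mean square difference of log2 values over the 11 T cell arrays, after each gene's own mean was taken off. For Dtx1 these were Fgf13 (0.639), Cd7 (0.654) and BC147527 (0.773), beside a deviation of 3.22 of Dtx1 around its own mean. For Cd7 they were Satb1 (0.600), Klrd1 (0.627) and Fgf13 (0.649). The nearest genes to Notch1 were Inpp5d (0.347), Ccdc88c (0.385) and Acvr1b (0.397), and those nearest to Dntt were Pou6f1 (0.50), Akr1c13 (0.570) and Rasgrp2 (0.666). Cd7 was thus among the nearest genes of Dtx1, and both share the low wild-type arrays 1 and 6.

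In MEFs, Notch1 was higher and Hes1 lower when both Snf5 and Ezh2 were lacking, and neither was called when Ezh2 alone was lacking. The Notch1 probe set 1418634_at read 7.32, 7.27 and 7.33 on the wild-type arrays of the second set and 8.26, 8.66 and 8.34 on the Snf5 Ezh2-deficient arrays, with no overlap. This was a 2.16-fold rise (log2 change 1.11, SE 0.103, limma, adjusted p = 4.52e-05). The probe set 1418633_at read 7.18, 7.22 and 6.75 and rose to 7.64, 8.09 and 7.70, a 1.69-fold rise (log2 change 0.76, SE 0.132, adjusted p = 0.00195). Hes1 read 9.32, 8.93 and 9.04 on those wild-type arrays and 8.65, 8.58 and 8.87 on the Snf5 Ezh2-deficient arrays, a 1.31-fold fall (log2 change -0.39, SE 0.104, adjusted p = 0.0178). The highest mutant array (8.87) lay just below the lowest wild-type array (8.93), and the call was lost without wild-type array 1 or without mutant array 1 or 2 (adjusted p = 0.064, 0.0579 and 0.0711). All 3 probe sets were called, beside 25.9% of all probe sets in either direction.

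In the Ezh2-deficient MEFs the Notch1 probe set 1418634_at read 7.59, 7.81 and 7.83, each above the 7.40, 7.34 and 7.27 of its wild-type set. The log2 change of 0.41 (SE 0.103, limma, adjusted p = 0.0613, unadjusted p = 0.00257) missed the threshold. The probe set 1418633_at read 7.12, 7.34 and 7.38 against 7.13, 7.21 and 6.96 (log2 change 0.18, adjusted p = 0.44). Hes1 read 9.36, 9.21 and 9.36 against 9.35, 9.04 and 9.10 (log2 change 0.15, adjusted p = 0.419). Of the 3 probe sets, 0 were called by limma, beside 3.14% of all probe sets called at an adjusted p under 0.05. At an unadjusted p under 0.05 there was 1, and the share of all probe sets at that threshold is not given here. Both wild-type sets were repeated summaries of the same 3 hybridisations, so the comparisons of both mutant lines shared all their controls. Set directly against each other, in a contrast added after seeing the data, all 3 probe sets differed between the lines (adjusted p from 0.000707 to 0.00861), as did 27.3% of all probe sets.

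**Figure D4:**
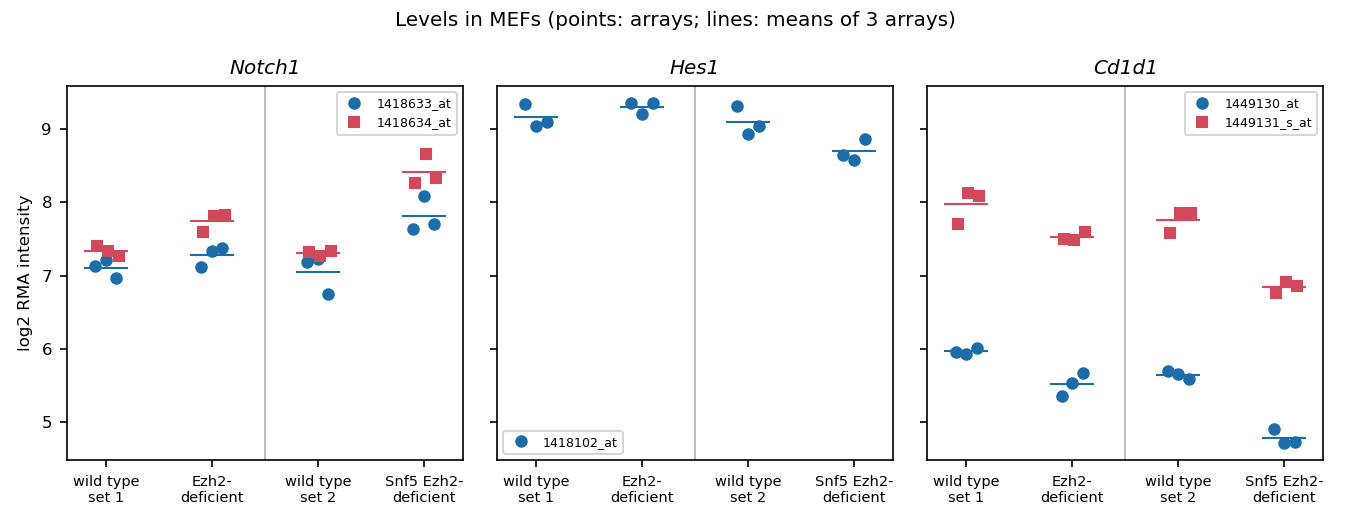
Log2 RMA intensity (vertical axis) of Notch1, Hes1 and Cd1d1 in the 4 sets of MEF arrays, with 1 point per array and a line at the mean of 3 arrays, coloured by probe set. Notch1 1418634_at lies at 7.27 to 7.40 on both wild-type sets and at 8.26 to 8.66 on the Snf5 Ezh2-deficient arrays, while Hes1 falls to 8.58 to 8.87 there.

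The change of Notch1 in MEFs without Snf5 and Ezh2 thus ran opposite to its change in the Snf5-deficient lymphomas; the cell types and their arrays were normalised separately, and the difference between the 2 changes was not tested. Cd1d1, chosen after its values were seen, was lower in both mutant MEF lines. Its probe set 1449130_at read 5.69, 5.66 and 5.59 on the second wild-type set and 4.90, 4.71 and 4.73 on the Snf5 Ezh2-deficient arrays (log2 change -0.87, limma, adjusted p = 6.19e-05), where all 3 mutant arrays were in the lowest 25%. In the Ezh2-deficient line the change was -0.45 (adjusted p = 0.0244), a call lost without wild-type array 1, 2 or 3 or mutant array 1 (adjusted p = 0.065, 0.0888, 0.0768 and 0.0705). It was also lost with the replicate block (adjusted p = 0.0584). The probe set 1449131_s_at changed by -0.92 (limma, adjusted p = 7.85e-05) in the Snf5 Ezh2-deficient line and by -0.45 (adjusted p = 0.0326) in the Ezh2-deficient line. The latter call was lost with each set by itself (adjusted p = 0.0795) and without any array but wild-type array 1 (adjusted p from 0.0553 to 0.127). Rag1, Dntt and Ptcra lay in the lowest 25% on every MEF array. Rag2 (5.66 to 6.20), Cd7 (6.69 to 7.17) and Dtx1 (7.10 to 7.62) lay above it on all of them, and none was called in either mutant line against wild type. As no detection calls were used, a value above this line does not by itself show expression.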

How the data were processed

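Per the labels' protocols, total RNA was hybridised to mouse 3′ expression arrays and the authors preprocessed the scans with RMA (no version is named). Deposited values were linear RMA intensities, taken to log2 here (the design had assumed log2 values). The 64 control probe sets were left out, 22626 were fitted with limma 3.58.1 in R 4.3.3 (lmFit, eBayes) and adjusted together by Benjamini-Hochberg, and a call was an adjusted p under 0.05. Values in the lowest 25% of an array were taken as near the floor, since no detection calls were used. Median log2 intensity was 8.04 to 8.37 on the T cell and 7.26 to 7.32 on the MEF arrays, and the number of arrays limits the precision. The steps were tested on simulated data.

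The second wild-type MEF set repeated the hybridisations of the first: over 5639 bright probe sets, same-numbered arrays differed by an SD of 0.0219 to 0.0241, against 0.137 to 0.152 otherwise. It was counted once, and an offset per probe set, from these controls, joined both sets. Genes in lists were read through the probe set with the highest T cell mean. All called genes of lists of at most 5 measured genes and up to 4 with the largest change of others were named, with the 3 genes most like each member that the results turn on. Members and lists were chosen with earlier results of these data known. Promoters came from RefSeq. Alternatives were quantile normalisation, 32 added before log2, a filter on low values, moderation with a trend, array weights, a replicate block, each array left out, each MEF set by itself and, after seeing the data, wild-type arrays 3 and 4 alone.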

Additional observations from a re-analysis of the deposited data

Results flagged for a closer look

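The effect on Notch1 and Hes1 differed between the MEF lines. Tested as the contrast of Snf5 Ezh2-deficient minus Ezh2-deficient MEFs, which was added after seeing the data, the Notch1 difference was 0.58 on the log2 scale in 1418633_at and 0.71 in 1418634_at (limma, adjusted p = 0.00861 and 0.000707). For Hes1 it was -0.54 (limma, adjusted p = 0.00359). In this contrast 27.3% of all probe sets were called in either direction, and the error of the offset that joins both sets of arrays is not included. No member was flagged for an array far from the others of its group among the 26 groups of values examined. This does not show that the arrays were alike. Wild-type arrays 1 and 6 stood apart together from arrays 2 to 5 for Rag1 (5.40 and 5.38 against 4.07 to 4.44) and Dtx1 (9.15 and 9.77 against 11.34 to 12.44). For Cd7 they read 10.28 and 10.79 against 12.02 to 13.06.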

How the results depend on the processing

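The number of arrays and the floor of the RMA values limit these results: the values of Ptcra, Rag1 and Rag2, the lymphoma values of Dtx1 and part of those of Dntt and Cd7 lie at or near the floor. Against all 6 controls, 231 of 233 alternative values of the member probe sets kept their direction and side of the threshold, and the 2 exceptions were those of Rag2. Against wild-type arrays 2 to 5, 184 of 193 did, and the 9 exceptions were 8 of Rag2 and 1 of the Cd1d1 probe set 1449130_at.

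Over all probe sets, 3463 were called against all 6 controls, 5567 with array weights and 5583 against wild-type arrays 3 and 4 only, beside 5566 against arrays 2 to 5. In the Ezh2-deficient MEFs 710 were called, 423 with each set fitted by itself, and 158 (without wild-type array 2) to 741 (without Ezh2-deficient array 2) when each array was left out; the cause was not tested. The sign of Lmo2, an early thymocyte gene not called against all 6 controls (-0.99), turned to 2.95 against wild-type arrays 3 and 4 only (limma, adjusted p = 0.0445). There, Jag2 (0.0729), Notch4 (0.0945), Adam10 (0.0903), Numb (0.0782), Xrcc6 (0.0532) and Slamf6 (0.41) were not called (limma, adjusted p). Mfng, Hmgb2, Atm, Hhex, Plxnd1, Lef1 and S1pr1 were called there but not against all 6 controls. Among other changes, quantile normalisation ended the Gata3 call against all 6 (limma, adjusted p = 0.0509) and the Jag2 call against arrays 2 to 5 (0.0517).

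Replicate numbers were not stated to pair samples, and deviations of same-numbered arrays correlated at 0.0799 to 0.312 in the T cell arrays and -0.0405 to 0.149 in MEFs; 3 of 5 lymphoma arrays correlated best with the wild-type array of their own number. With the number as a replicate block, 9 member probe sets were called against all 6 controls and 8 against arrays 2 to 5, where Rag2 (limma, adjusted p = 0.0605 and 0.0941) and, in the second, Cd1d1 1449130_at (limma, adjusted p = 0.0729) were not called. Of the other named genes, Jag2 (0.089 and 0.155), Notch4 (0.0776 and 0.0596), and against all 6 controls Adam10 (0.0539), Klf2 (0.0663) and Slamf6 (0.072) were not called with the block (limma, adjusted p), nor were Psen2 (0.101) and Atm (0.0524) against arrays 2 to 5, while Rbpj was called against all 6 (0.0475). The replicate block left 359 probe sets called in the Ezh2-deficient MEFs.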
